A study of Mus musculus with 24 samples.

Results

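DNase omission in fresh liver RNA was described on 6 of the 24 mouse miRNA arrays of the series, namely all arrays of unstored (0h) liver RNA that included small RNAs. For each of 3 mice (mouse 7, mouse 10 and mouse 9 in the labels), 1 array held RNA isolated with DNase and 1 array held RNA isolated without DNase. Group and mouse were read from the sample labels, and each result below is a difference between both arrays of the same mouse. In the study, the liver of each male mouse was divided into 5 parts immediately after death, and the parts used here went directly into an RNA-preserving solution. Total RNA was then isolated with a column kit that retains small RNAs, with or without its optional DNase step. No genotype or other treatment separated the groups, and the age of these mice is not given in the sources used here. The methods name a strain, C57BL6 with a knock-out of Il1a, for the animals of the storage experiment and do not restate it for these livers. Both preparations of a mouse came from different pieces of liver and from separate isolations. Moreover, the array with DNase and the array without DNase lay at the same positions on every slide, and each mouse had its own slide and its own scan. DNase state, piece of tissue, isolation and array position cannot be told apart in this design, and neither can mouse, slide and scan.

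MiRNAs are short RNAs that are cut from hairpin precursors and guide repressor complexes to messenger RNAs, mostly through a seed at bases 2 to 8. MiR-122 is the leading miRNA of hepatocytes, and miR-192, miR-194 and the let-7 family are also well known in liver. A DNase step during RNA isolation removes genomic DNA that co-purifies with RNA. The array kit attaches a cyanine 3 dye to 3′ ends of the RNA input without selecting miRNAs, so that the name of a signal is that of its probe. The question addressed by this comparison was whether residual DNA changes hybridization signals of miRNAs in intact RNA.

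The quality of the 6 preparations differed little. RNA integrity numbers (RIN) were 9.0, 8.9 and 8.9 with DNase and 8.8 in all 3 preparations without DNase. Each array carried 1881 mouse miRNAs with 30 spots each, and no spot was saturated. Arrays of a group correlated with r of 0.963 to 0.982 across miRNAs. Hepatocyte signals were present on all 6 arrays, with miR-122-5p between 6767 and 13686 intensity units. Intensity units are background-subtracted fluorescence sums per miRNA, not normalized between arrays.

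Sequences are shown for 2 sets of miRNAs, both chosen after their values were seen, which were matched by name to RefSeq (build GRCm38.p6), with the seed in capitals. They hold 5 of the 21 miRNAs called higher below. Of those 21, 15 had a sequence, with a median G and C content of 54.5% and 4 below 45%. The first set holds the 4 bright signals that carried most of the change in total signal.
mmu-miR-6366: aGCUAAGGggcccggggagcca
mmu-miR-3963: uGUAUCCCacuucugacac
mmu-miR-3968: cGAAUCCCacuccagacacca
mmu-miR-5100: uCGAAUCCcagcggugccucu
MiR-3963 and miR-3968 had the same base at 15 of 19 aligned positions, and the letters of the miR-5100 seed recur in miR-3968, shifted by 1 base. MiR-6366 lies at chr16:18165093-18165114 (minus strand) and miR-3963 at chr3:151023839-151023857 (minus strand), both outside the span of any other gene of the table. MiR-3968 lies at chr11:115447969-115447989 (minus strand) within the span of Trim80, and miR-5100 at chr11:60728698-60728718 (plus strand) within the span of Mief2. Exon or intron was not determined.

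The second set holds miRNAs of low G and C content that were also higher without DNase, with 2 abundant miRNAs for comparison, let-7a-5p and miR-21a-5p, whose ratios were small.
mmu-miR-19a-3p: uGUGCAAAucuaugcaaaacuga
mmu-miR-19b-3p: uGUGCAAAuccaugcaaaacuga
mmu-miR-29b-3p: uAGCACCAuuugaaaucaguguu
mmu-miR-29c-3p: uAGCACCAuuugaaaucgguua
mmu-miR-101a-3p: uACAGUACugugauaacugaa
mmu-miR-144-3p: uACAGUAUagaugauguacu
mmu-miR-142a-3p: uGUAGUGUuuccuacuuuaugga
mmu-miR-142a-5p: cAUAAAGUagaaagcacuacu
mmu-let-7a-5p: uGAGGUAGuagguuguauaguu
mmu-miR-21a-5p: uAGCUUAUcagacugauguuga
Both miR-19 members share the seed GUGCAAA and are the same at 22 of 23 bases, and miR-29b-3p and miR-29c-3p share AGCACCA. Such close members can also share hybridization, so that their signals are not independent. MiR-19a-3p lies at chr14:115044048-115044070 (plus strand), miR-101a-3p at chr4:101346957-101346977 (minus strand), and miR-144-3p at chr11:78073047-78073066 (plus strand). Both arms of miR-142a come from chr11 (plus strand), at 87756903-87756925 for the 3p arm and 87756867-87756887 for the 5p arm. MiR-29c-3p lies at chr1:195037600-195037621 (plus strand) within the span of the long noncoding RNA A330023F24Rik, whereas miR-19b-3p and miR-29b-3p each have 2 gene copies.

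Total miRNA signal was higher without DNase in all 3 mice. The summed signal of the detected miRNAs was 55237 with DNase and 131979 without in mouse 7, 109374 and 163493 in mouse 10, and 92287 and 132195 in mouse 9. Every array without DNase was above every array with DNase. The log2 ratio was 1.26, 0.58 and 0.52, with a mean of 0.79 ± 0.41 (SD, n = 3). An exact sign-flip permutation of 3 pairs gave a two-sided p of 0.25, the smallest it allows, and an exact permutation of 3 arrays against 3 gave 0.1, also the smallest. The design can therefore not pass 0.05 for a single total.

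**Figure D1:**
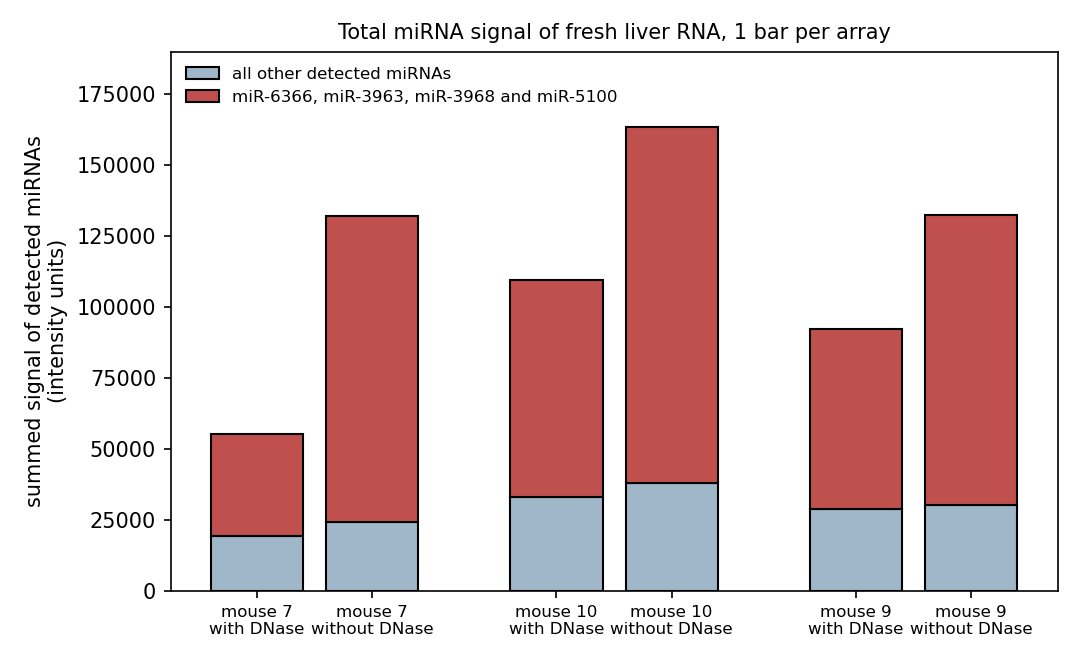
Summed signal of detected miRNAs in intensity units (y axis, from 0) on each of the 6 arrays, 1 bar per array, paired by mouse. The upper part of each bar is the sum of miR-6366, miR-3963, miR-3968 and miR-5100, which held 65.0% to 70.0% with DNase and 76.9% to 81.6% without. The lower part, all other detected miRNAs, lies between 19319 and 37775 units and differs much less within a pair.

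The increase was concentrated in a few bright signals. MiR-6366, miR-3963, miR-3968 and miR-5100 together held 67.9% ± 2.60 (SD, n = 3) of the total with DNase and 78.6% ± 2.67 (SD, n = 3) without, and this set of 4 was chosen after its values were seen. Their sum had log2 ratios of 1.59, 0.72 and 0.68 in mouse 7, 10 and 9 (mean 0.99 ± 0.51, SD, n = 3, exact sign-flip p = 0.25, the smallest possible). All other detected miRNAs summed to 19319, 32795 and 28826 units with DNase and to 24220, 37775 and 30202 without, in the same order of mice. Their log2 ratios were 0.33, 0.20 and 0.07, so the groups of arrays overlapped once these 4 were left out. The share of miR-122-5p, the hepatocyte miRNA, was 11.9% ± 0.693 (SD, n = 3) with DNase and 7.70% ± 1.31 (SD, n = 3) without.

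Each of these 4 signals was higher without DNase in every mouse. MiR-6366 gave 23166, 41140 and 37532 units with DNase in mouse 7, 10 and 9 and 57326, 64621 and 53289 without. MiR-3963 gave 9627, 26046 and 19129 units with DNase and 36039, 42776 and 34303 without. The lowest array without DNase was above the highest array with DNase for both. MiR-3968 gave 1639, 5130 and 3716 units with DNase and 7438, 9032 and 7103 without. MiR-5100 gave 1486, 4263 and 3083 units with DNase and 6957, 9290 and 7297 without. Among the 631 miRNAs tested, 6.34% had all 3 signals without DNase above all 3 with DNase, and 7.29% had all 3 below. In the paired limma fit on normalized values (glog2, a log2-like scale from variance stabilizing normalization), miR-5100 rose by 1.52 (SE 0.24, Benjamini-Hochberg adjusted p = 0.00789) and miR-3968 by 1.30 (SE 0.27, adjusted p = 0.0302). MiR-3963 differed by 1.14 (SE 0.34, adjusted p = 0.111) and miR-6366 by 0.81 (SE 0.37, adjusted p = 0.253), which did not pass. Mouse 7 gave the largest ratio for all 4, and its array with DNase had the lowest total of the 6. A list of 8 bright signals, chosen with earlier results of these data known, held these 4 and miR-494-3p, miR-2861, miR-690 and miR-709, of which 2 were called higher and 0 lower, beside 3.33% and 0% of all miRNAs tested. MiR-690, miR-709 and miR-2861 differed by 0.25, 0.12 and -0.11 with adjusted p of 0.176, 0.515 and 0.677.

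Quantile normalization, which gives every array the same distribution of values, removed these differences by construction for the brightest ranks. Under it miR-6366 and miR-3963 differed by 0 and miR-3968 by -0.21 on the log2 scale. MiR-5100 differed by 0.38 (adjusted p = 0.0803). With normexp background correction before quantile normalization miR-6366 differed by 0, miR-3963 by 0.20 (adjusted p = 1.5e-06), miR-3968 by 0.77 (adjusted p = 0.0371) and miR-5100 by 0.71 (adjusted p = 0.0306).

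Abundant miRNAs of liver had smaller ratios. Over the 20 brightest miRNAs the median log2 ratio was 0.35 in mouse 7, 0.23 in mouse 10 and 0.11 in mouse 9, with a mean of 0.23 ± 0.12 (SD, n = 3, exact sign-flip p = 0.25, the smallest possible). Without pairs, an exact permutation of 3 arrays against 3 gave p = 0.4. Of these 20, 16 were higher without DNase in all 3 mice and 1, miR-494-3p, was lower in all 3. MiR-122-5p gave 6767, 12125 and 11368 units with DNase and 8176, 13686 and 11277 without, with log2 ratios of 0.27, 0.17 and -0.01. Its groups overlapped, and mouse 9 showed almost no difference. MiR-21a-5p, an miRNA with a broad tissue distribution, gave 1542, 2452 and 2221 units with DNase and 2055, 2746 and 2515 without. MiR-192-5p gave 619, 842 and 926 units with DNase and 812, 1010 and 1053 without. For both, the array without DNase was the higher one in every mouse, whereas the ranges of the groups overlapped.

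**Figure D2:**
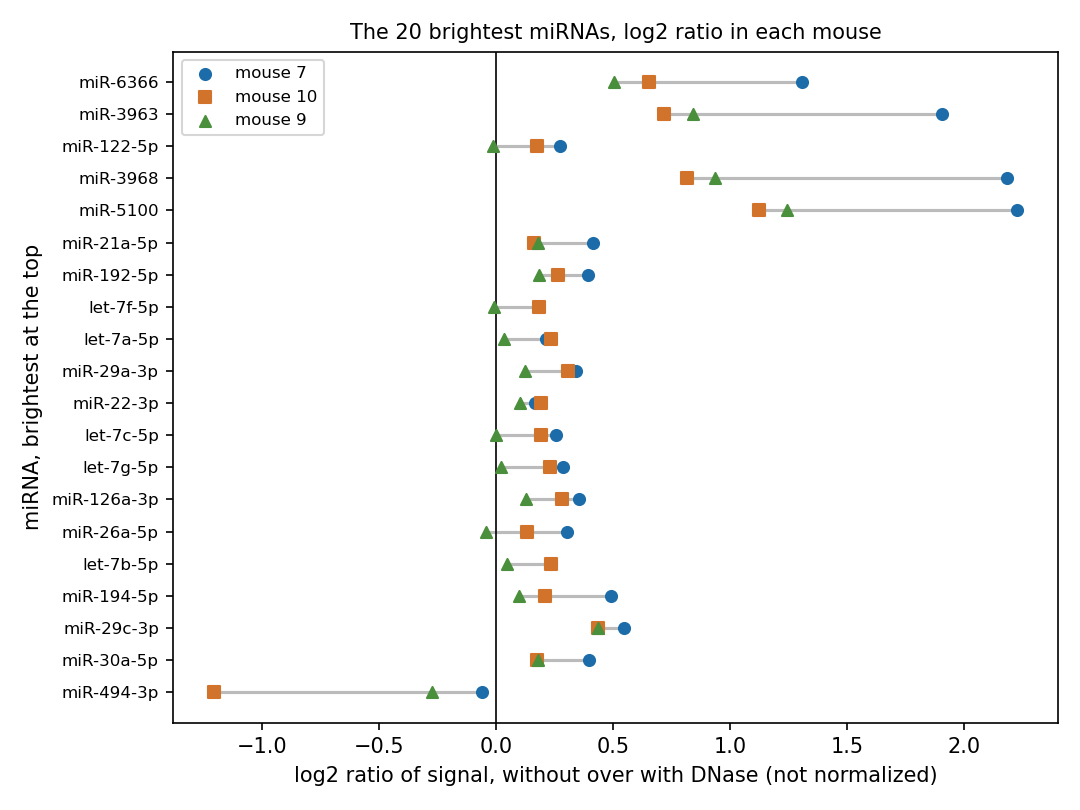
Log2 ratio of the signal without over with DNase (x axis, signals not normalized) for the 20 brightest miRNAs (y axis, brightest at the top), with 1 symbol per mouse and a line from the lowest to the highest. MiR-6366, miR-3963, miR-3968 and miR-5100 lie at 0.51 or above in each mouse, miR-494-3p is below 0 in all 3, and the other 15 lie between -0.04 and 0.55.

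The fixed list of 10 hepatocyte and liver miRNAs was detected completely on all 6 arrays. One member, miR-101a-3p, rose at an adjusted p under 0.05, and none fell, beside 6.02% higher and 0.158% lower among all miRNAs tested. The median glog2 difference of the list was 0.24, compared to 0.09 for all 631 and 0.16 for the 247 detected on all 6 arrays. MiR-148a-3p differed by 0.37 (SE 0.10, adjusted p = 0.0792) and miR-122-3p, the passenger arm of miR-122, by -0.08 (SE 0.09, adjusted p = 0.676). None of the 9 let-7 members passed, with mean log2 ratios of 0.11 to 0.31. The let-7 family represses growth genes in differentiated tissue. Let-7a-5p gave 569, 941 and 850.5 units with DNase and 660, 1108 and 870 without, and let-7f-5p gave 600, 1005 and 901 with and 678, 1140 and 896 without. In mouse 9 the pair was nearly equal for both.

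The median miRNA had a slightly higher signal without DNase in mouse 7 and mouse 10 and a nearly equal one in mouse 9. Across the 247 miRNAs detected on all 6 arrays, the median log2 ratio of the signals was 0.27 in mouse 7, 0.22 in mouse 10 and 0.01 in mouse 9. Of these, 120 were higher in all 3 mice and 32 were lower in all 3. The median of the mean ratios was 0.25 for the 20 brightest, 0.22 for ranks 21 to 50, 0.20 for ranks 51 to 100 and 0.09 for the 147 dimmer ones. In mouse 9 alone, the medians were 0.11, 0.08 and 0.07 for the brighter ranks in turn and -0.10 for the 147 dimmer ones. The ratios of 2 mice correlated with Pearson r of 0.53 to 0.73 and Spearman rho of 0.67 to 0.72 across these 247 miRNAs, which share arrays and are not independent.

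**Figure D3:**
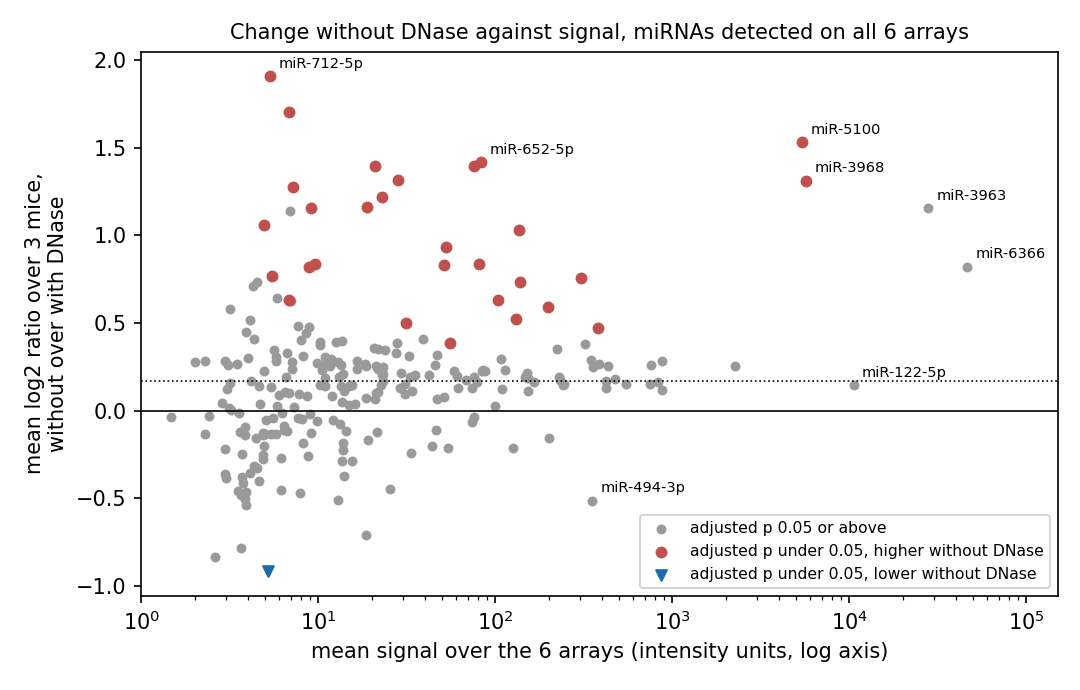
Mean log2 ratio over 3 mice (y axis, without over with DNase) against the mean signal over the 6 arrays (x axis, intensity units, log axis) for the 247 miRNAs detected on all 6 arrays. Red points are higher and the blue triangle is lower without DNase at an adjusted p under 0.05, the dotted line is the median ratio of 0.17, and the brightest signals miR-6366, miR-3963, miR-3968 and miR-5100 lie apart from miR-122-5p.

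Single miRNAs that passed the test were almost all higher without DNase. In the paired fit with limma, 21 of 631 miRNAs (3.33%) were higher at an adjusted p under 0.05 and by 2-fold or more (1 glog2 unit), and 0 were lower. At any size, 38 miRNAs (6.02%) were higher and 1 (0.158%) was lower at an adjusted p under 0.05, and 139 had an unadjusted p under 0.05. All 21 were higher in 3 of 3 mice, and for 17 of them the 3 signals without DNase lay above the 3 with DNase. The 21 were selected on these same differences, so this is a description and no further support. The changes ranged from 1.01 to 1.72. Of the 21, 13 had a mean signal below 20 intensity units, and 13 were detected on all 6 arrays.

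The 5 largest calls were miR-551b-5p, miR-712-5p, miR-5100, miR-219a-5p and miR-7666-3p. MiR-712-5p gave 0.85, 4.02 and 2.85 units with DNase and 7.29, 10.2 and 6.91 without in mouse 7, 10 and 9, a glog2 increase of 1.58 (SE 0.25, adjusted p = 0.00789). MiR-219a-5p gave 1.96, 6.86 and 2.05 units with DNase and 7.44, 12.8 and 9.92 without, an increase of 1.49 (SE 0.22, adjusted p = 0.00664). These are signals close to the detection level, and without DNase they lay above every value with DNase. MiR-551b-5p had a fitted difference of 1.72 (SE 0.20, adjusted p = 0.00337) but was detected on 1 array with DNase and 3 without. MiR-7666-3p had a fitted difference of 1.41 (SE 0.20, adjusted p = 0.00664) and was detected on 2 and 3. The size of both rests on values below detection. Brighter members of the 21 were miR-652-5p, with 27.0, 64.5 and 49.5 units with DNase and 122, 133 and 100.7 without, and miR-212-3p, with 21.9, 56.7 and 54.1 with and 99.7, 119 and 103 without. They rose by 1.39 (SE 0.20, adjusted p = 0.00667) and 1.36 (SE 0.21, adjusted p = 0.00785), and neither group of arrays overlapped the other. For 2 further calls, miR-344i and miR-468-3p, no array with DNase gave a detected signal, and miR-468-3p was detected on none of the 6, so that no fold is given.

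The 21 calls rest on the comparison within mice. Without the replicate block, the same 6 arrays gave 0 calls with limma, with 53 miRNAs at an unadjusted p under 0.05 and a lowest adjusted p of 0.18. With mouse 7 left out, 3 calls were obtained (miR-19a-3p, miR-5100 and miR-652-5p), with mouse 9 left out 0 (159 at an unadjusted p under 0.05, lowest adjusted p 0.0685), and with mouse 10 left out 24. Each of these fits rests on 2 pairs.

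The 38 miRNAs that were higher at an adjusted p under 0.05 included members with low and with high miRNA numbers. MiRNA numbers rise broadly with the time of naming. The grouping was described after the values had been seen. In the class below 300, 18 of 141 miRNAs tested were higher, in the class 300 to below 1000 8 of 124, in the class 1000 to below 3000 2 of 40, and in the class of 3000 and above 10 of 326, beside 6.02% of all. Detected on all 6 arrays were 105, 44, 15 and 83 miRNAs of these classes in turn. The classes thus differed in how many members had a signal on every array compared. The 18 below 300 had a median difference of 0.88 in mouse 7, 0.73 in mouse 10 and 0.76 in mouse 9. The 20 numbered 300 and above had medians of 1.67, 0.88 and 0.91, with the largest difference in mouse 7. Signals without DNase lay above all signals with DNase for 17 of these 20 and for 6 of the 18, beside 6.34% of all miRNAs tested. The 38 were selected as higher on the same arrays, so the contrast with all miRNAs tested is no support for them.

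**Figure D4:**
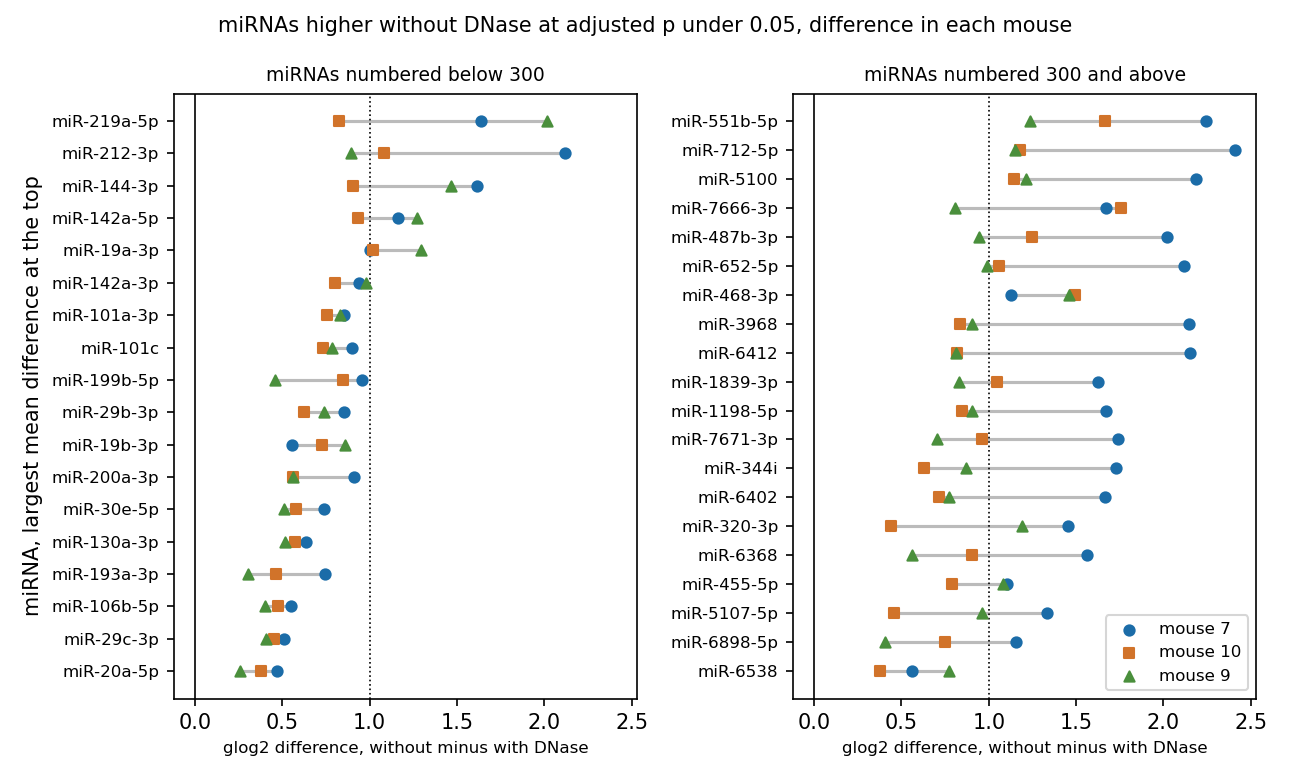
Glog2 difference without minus with DNase (x axis) in each mouse (1 symbol per mouse, with a line from the lowest to the highest) for the 38 miRNAs higher at an adjusted p under 0.05, largest mean difference at the top. The 18 miRNAs numbered below 300 (left) lie close together among mice for most members, whereas mouse 7 lies to the right for most of the 20 numbered 300 and above (right), and the dotted line marks the 2-fold threshold of 1.

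Seeds were compared only among miRNAs with a sequence, which 30 of the 38 had. Of these 30, 3 seeds were shared by 2 miRNAs each, and the other members each had a seed of their own. Some of these seeds repeat another with a shift of 1 base, such as ACAGUAC of miR-101a-3p and CAGUACU of miR-101c. Different seeds thus need not mean independent signals. MiR-19a-3p and miR-19b-3p, of the cluster that promotes cell growth together with miR-17 and miR-20a, both rose. MiR-19a-3p gave 8.1, 18.5 and 8.7 units with DNase and 17.1, 37.9 and 22.4 without, and rose by 1.11 (SE 0.10, adjusted p = 0.00243). MiR-19b-3p gave 79.4, 148 and 83.3 units with DNase and 120, 242 and 154 without, and rose by 0.71 (SE 0.09, adjusted p = 0.00448). Each mouse showed the increase, while mouse 10 was brighter on both arrays, so that the ranges overlapped. MiR-20a-5p and miR-106b-5p, which share the seed AAAGUGC with miR-20b-5p and miR-93-5p, rose by 0.37 (SE 0.09, adjusted p = 0.0496) and 0.47 (SE 0.09, adjusted p = 0.0174), and the other two did not pass.

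In the miR-29 and miR-30 families, 3 of 8 members passed at an adjusted p under 0.05, all higher, beside 6.02% of all miRNAs tested, with a median difference of 0.24 for the families. MiR-29 represses collagen genes. MiR-29b-3p gave 129, 353 and 213 units with DNase and 240, 537 and 364 without, and rose by 0.74 (SE 0.09, adjusted p = 0.00448). MiR-29c-3p gave 215, 420 and 326 units with DNase and 315, 567 and 441 without, and rose by 0.46 (SE 0.09, adjusted p = 0.0249). MiR-29a-3p, with the same seed, differed by 0.24 (SE 0.11, adjusted p = 0.24), which did not pass. From the miR-30 family, miR-30e-5p rose by 0.61 (SE 0.09, adjusted p = 0.00664), whereas miR-30a-5p differed by 0.24 (SE 0.09, adjusted p = 0.206). MiR-101a-3p, a repressor of the methyltransferase Ezh2, gave 42.1, 77.3 and 56.9 units with DNase and 78.5, 129 and 104 without, and rose by 0.82 (SE 0.08, adjusted p = 0.00243).

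Few decreases without DNase passed the adjusted p. By the order of signals alone, 46 of 631 miRNAs (7.29%) had all 3 signals without DNase below all 3 with DNase, and 40 (6.34%) had all 3 above. MiR-3095-3p was the 1 miRNA with a lower value at an adjusted p under 0.05, with 4.78, 10.06 and 4.72 units with DNase and 1.99, 7.27 and 2.34 without. It fell by 0.73 on the glog2 scale (SE 0.15, adjusted p = 0.0275). MiR-494-3p gave 314, 639 and 321 units with DNase and 301, 277 and 265 without, with log2 ratios of -0.06, -1.21 and -0.28. Here all signals without DNase were below those with DNase, but most of the mean difference came from mouse 10, and it did not pass (glog2 difference -0.53, SE 0.19, adjusted p = 0.173). MiR-7005-5p, miR-7211-5p and miR-6969-5p were the further largest decreases by the naming rule, with glog2 differences of -0.69, -0.61 and -0.49 and adjusted p of 0.12, 0.132 and 0.117. With mouse 10 left out, miR-494-3p differed by -0.20, miR-7005-5p by -0.33 and miR-6969-5p by -0.27.

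Of the 21 tested members of 5 marker lists for cell types of liver, 4 were higher without DNase at an adjusted p under 0.05 and 0 were lower. Among all miRNAs tested 6.02% were higher and 0.158% lower. In bulk RNA fewer cells of a type and less RNA per cell cannot be told apart. None of the 4 hepatocyte markers passed, and their summed signal ranged from 7708 to 13446 units with DNase and from 9417 to 15241 without. Of the red blood cell list, 3 of 4 were tested. MiR-144-3p gave 5.7, 22.2 and 9.2 units with DNase and 19.1, 41.9 and 26.8 without and rose by 1.33 (SE 0.14, adjusted p = 0.00247), whereas its cluster partner miR-451a differed by 0.27 (SE 0.10, adjusted p = 0.181) and miR-486a-5p by -0.08 (SE 0.15, adjusted p = 0.791). The summed signal of the list ranged from 226 to 431 units with DNase and from 294 to 577 without. Of the immune list, 5 of 6 were tested, and both arms of miR-142a, an miRNA of blood cells, rose. MiR-142a-3p gave 18.5, 61.4 and 30.3 units with DNase and 36.8, 106 and 61.3 without, and rose by 0.91 (SE 0.09, adjusted p = 0.00243). MiR-142a-5p rose by 1.12 (SE 0.13, adjusted p = 0.00262), but it was detected on 2 arrays with DNase and 3 without. The size of its rise thus rests partly on a value below detection. MiR-223-3p, of myeloid cells, differed by 0.19 (SE 0.09, adjusted p = 0.284) and miR-146a-5p by 0.10 (SE 0.10, adjusted p = 0.634). MiR-155-5p, detected on none of the 6 arrays, differed by -0.16 (SE 0.26, adjusted p = 0.758). The summed immune signal ranged from 58.7 to 148 units with DNase and from 85.3 to 217 without. In the biliary list, 2 of 5 were tested and miR-200a-3p, an epithelial miRNA, rose by 0.68 (SE 0.14, adjusted p = 0.0254), with 7.36 to 11.1 summed units with DNase and 10.3 to 16.4 without. None of the 7 endothelial and stromal markers passed, beside the 6.02% and 0.158% of all, with 334 to 613 summed units with DNase and 429 to 759 without. Within the blood cell lists some members passed and others did not, and the part of blood content in these differences was not tested.

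MiRNAs of low G and C content had higher ratios. Of the 247 miRNAs detected on all 6 arrays, 214 had a RefSeq sequence. Their mean log2 ratio correlated with the G and C content at Spearman rho of -0.35 (Pearson r -0.26), and in mouse 7, 10 and 9 rho was -0.29, -0.31 and -0.39. The correlation is across miRNAs of the same arrays, which are not independent, and is given as a description. Median ratios were 0.24 in 30 miRNAs under 40%, 0.25 in 60 from 40% to below 50%, 0.17 in 63 from 50% to below 60%, and -0.05 in 61 at 60% and above. Within the class below 300, rho was -0.37 (n = 92), and within the class of 300 and above it was -0.18 (n = 122). Of the 18 miRNAs below 300 that rose, 17 had a sequence, and their median G and C content was 38.1%, compared to 47.6% for all tested in that class and 45.5% for those detected on all 6 arrays. Of these, 15 were below 45%. MiRNAs numbered 300 and above that rose had a median of 60% and none below 45%, near the 61.9% of all tested in that class. The median signal was 13.0 units in the lowest and 8.74 in the highest G and C range.

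**Figure D5:**
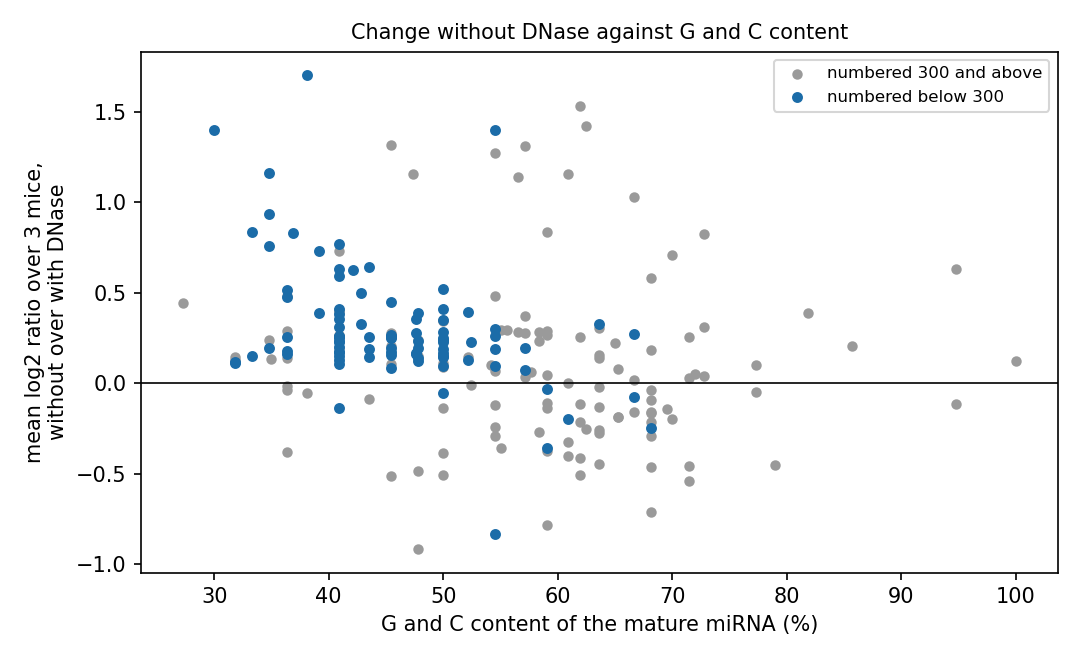
Mean log2 ratio over 3 mice (y axis, without over with DNase) against G and C content of the mature miRNA in percent (x axis) for the 214 miRNAs detected on all 6 arrays that had a RefSeq sequence, 1 point per miRNA. Blue points are miRNAs numbered below 300 and grey points those numbered 300 and above. Median ratios fall from 0.24 below 40% to -0.05 at 60% and above.

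The letters shared by miR-3968 and miR-5100 were searched as CGANUCC on the miRNA strand, a pattern chosen after the values were seen. They occurred in 4 of 1608 miRNAs on the array with a sequence (0.249%), namely miR-3968, miR-5100, miR-434-3p and miR-700-3p. Of the remaining members, miR-700-3p was tested and differed by -0.11 (SE 0.18, adjusted p = 0.758), but it was detected on none of the 6 arrays. A match is a description of the letters only.

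RNA of the same fresh livers that had been depleted of small RNAs and DNase-treated was hybridized on 3 further arrays of the series. The paired fit did not include these arrays. They did enter the normalization and the choice of the miRNAs tested, which used all arrays of the series. The reading on them is therefore not fully independent of the comparison. Most miRNAs that were higher without DNase gave no detected signal there. Of the 38, 31 (81.6%) were detected on none of these 3 arrays, beside 63.7% of all 631 tested and 28.7% of the 247 detected on all 6 arrays. The 4 bright signals were detected on all 3, with a median of 1996 units for miR-3963, 127 for miR-6366, 18.5 for miR-3968 and 5.6 for miR-5100. MiR-122-5p gave a median of 2521 units in depleted RNA.

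The number of detected miRNAs did not shift in one direction. With DNase 285, 303 and 308 miRNAs were detected in mouse 7, 10 and 9, and without DNase 288, 342 and 273. The mean was 298.7 ± 12.1 (SD, n = 3) with and 301 ± 36.3 (SD, n = 3) without DNase. The differences of 3, 39 and -35 had a mean of 2.33 ± 37.0 (SD, n = 3, two-sided exact sign-flip p = 0.75). In mouse 10, 39 miRNAs were detected only without DNase and 0 only with DNase, whereas in mouse 9, 6 were detected only without and 41 only with DNase. In total, 247 miRNAs were detected on all 6 arrays and 1535 on none. A single miRNA, miR-664-3p, was detected on 3 arrays without and 0 with DNase. Its signal was 2.9, 3.3 and 3.0 units with DNase and 1.2, 3.9 and 1.6 without. The values with DNase are sums of probe signals and those without are total gene signals, so the groups cannot be compared for this miRNA.

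Control features had ratios close to 0. The 4 spike-in features had log2 ratios of -0.17 to 0.23 over the 3 mice, and they divided. Both dmr_3 and dmr_6 were lower without DNase in all 3 mice, from -0.17 to -0.06, whereas dmr_285 and dmr_31a ranged from -0.12 to 0.23. Their median ratio averaged -0.02 (SD 0.06, n = 3, exact sign-flip p = 0.75), that of negative control spots -0.02 (SD 0.04, n = 3, exact p = 0.50) and that of the local background 0.05 (SD 0.11, n = 3, exact p = 0.75). With each array scaled to its spike-in features, the log2 ratio of the total signal was 0.81.

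After 96h of storage, the same comparison of total signal had no common direction. The log2 ratio of the total without over with DNase was -0.33, 0.38 and -0.95 in mouse 7, 10 and 9, on stored RNA with RIN of 2.3 to 2.5. The difference between stored and fresh tissue was -1.08 ± 0.77 (SD, n = 3, exact sign-flip p = 0.25, the smallest possible), lower after storage in 3 of 3 mice. For the 4 bright signals the ratios were -0.76, 0.54 and -1.88 after storage. The repeat-rich families miR-297, miR-466, miR-467 and miR-669 had 25 of 61 members tested. In fresh RNA 0 of the 25 were called, with a median difference of 0.09, the same as the 0.09 of all 631. Of the 61 members, 8 were detected on all 6 fresh arrays and 51 on none. Most members thus had no detected signal in fresh RNA, and the 0 calls cannot show an absence of change. In stored RNA 12 of the 25 were called higher, with a median of 1.56, beside 4.44% of all miRNAs tested. Most of the 25 passed the detection filter through arrays other than the 6 fresh ones, the stored arrays among them. Members of such families can also share hybridization. The 12 are therefore not independent, and their share is given as a description only. The 28 higher and 3 lower calls in stored RNA depended on scaling and on mouse 10. With limma they became 0 without normalization (66 at an unadjusted p under 0.05) and 0 with spike-in scaling (68), and 126 higher and 158 lower with mouse 10 left out. In the interaction fit, which compares the DNase difference between stored and fresh RNA, 1 of the 25 was called, beside 4 of 631 (0.634%) in all. Of the 21 miRNAs higher in fresh RNA and the 28 higher in stored RNA, 2 were shared (9.52% and 7.14%), miR-144-3p and miR-468-3p, which holds for the variance stabilizing normalization with all 3 mice. The median 96h difference of the 21 was -0.22, compared to 0.02 for all. MiR-5100 differed by -0.61 (adjusted p = 0.503) and miR-3963 by -1.46 (adjusted p = 0.152) after storage, and neither difference from fresh RNA passed (interaction adjusted p = 0.161 and 0.178).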

How the data were processed

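The arrays were one-colour mouse miRNA arrays from Agilent. Per the file headers, the authors extracted intensity with Agilent Feature Extraction 10.10.1.1 (background-subtracted total gene signals and detection flags per miRNA, not normalized between arrays). The deposited series table contains log2 values that the authors normalized by variance stabilizing normalization (vsn), and served as an alternative. Aligners and genome builds do not apply to these arrays.

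For each miRNA the total gene signal was used where it was flagged detected, and the sum of its probe signals elsewhere. Totals, ratios and detected numbers were taken from these unnormalized signals. Vsn was rewritten in Python 3.11.15 (numpy 2.4.6, pandas 2.3.3, scipy 1.17.1), fitted to all 24 arrays with 7 rounds that kept 90% of miRNAs, and differed from the deposited values by 0.0956 (SD). MiRNAs detected on at least 5 of 24 arrays were tested (631). The paired fit used limma 3.58.1 in R 4.3.3, with the mouse as block on the 6 arrays, a variance trend and two-sided Benjamini-Hochberg adjustment over the 631. Calls needed an adjusted p under 0.05 and 2-fold (1 on the glog2 scale). On 631 simulated miRNAs, of which 200 were changed in either direction, changes of size 1 were called in 44% and of size 2 in 98%. Size 1 equals the call threshold, and 75.5% of these changes passed the adjusted p alone. The real comparison had far fewer miRNAs that passed, nearly all higher, so the simulated rates need not hold for it. The methods' rank test cannot pass 0.05 with 3 arrays against 3. Totals were tested with two-sided exact sign-flip permutations. The precision is limited by the 3 pairs.

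The mouse numbers in the labels pair the arrays. Deviations from the group means correlated at 0.585, 0.423 and 0.217 within mice 7, 10 and 9, and at -0.478 to 0.173 between different mice. Each mouse had its own slide, so these correlations cannot separate mouse from slide. Named miRNAs were the 20 brightest, up to 5 largest increases and decreases detected on all 6 arrays and equal in direction in 3 mice, those detected on 3 of 3 arrays of 1 DNase state and 0 of the other, the 5 largest calls, and members of the lists. The lists held liver, cell-type, let-7, miR-29 and miR-30, repeat-rich and bright isolation-dependent miRNAs and 4 number classes. Members and lists were chosen with earlier results of these data known. Alternatives changed scaling, background correction, filter, pairing and arrays. MiRNA names were matched to RefSeq sequences for 1608 of 1881. Fits over all 24 arrays include RNase-treated arrays of mouse 9 whose labels disagree on the dose. Figures were drawn with matplotlib 3.10.9.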

Additional observations from a re-analysis of the deposited data

Results flagged for a closer look

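The change without DNase differed between stored and fresh RNA, by the interaction test in limma, for 4 miRNAs. The interaction, stored minus fresh, was 2.12 for mmu-miR-1943-3p, 1.93 for mmu-miR-207, 2.98 for mmu-miR-467c-5p and 2.07 for mmu-miR-7047-3p on the glog2 scale, each with an adjusted p of 0.0372. In fresh RNA their differences without minus with DNase were -0.07, -0.07, 0.26 and -0.26, and in stored RNA 2.05, 1.86, 3.24 and 1.81. The first 3 were detected on no fresh array, where their signals were between -0.5 and 2.6 intensity units. MiR-7047-3p was detected on all 6 fresh arrays, with 5.0, 5.0 and 4.7 units with DNase and 4.3, 5.5 and 2.5 without. Leaving out mouse 7 or mouse 9 ended all 4 calls (lowest adjusted p 0.622 and 0.31), and leaving out mouse 10 gave 155 calls.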

How the results depend on the processing

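The log2 ratio of the total signal stayed positive under all 9 alternatives, from 0.20 without the 4 bright signals (chosen after seeing the data) and 0.28 without the 20 brightest miRNAs to 0.92 without mouse 9. The ratio of the 20 brightest stayed positive under 11 alternatives and was 0 under quantile normalization, where miR-6366 and miR-3963 were also at 0 and miR-3968 at -0.21. Scaling to the 75th percentile of commonly detected miRNAs lowered the ratio of the 20 brightest from 0.23 to 0.08. For the total and the 20 brightest, leaving out 1 mouse could not turn the sign, since the ratios of all 3 mice were positive. The permutation without pairs kept the same mean for the total. With normexp correction and quantile normalization miR-6366 was at 0, miR-3963 at 0.20, miR-3968 at 0.77 and miR-5100 at 0.71. The 21 single calls became 0 under quantile normalization (110 at an unadjusted p under 0.05), 0 under normexp (160), 13 with vsn on the tested miRNAs only, 0 without the replicate block (53), 0 in fits of all 24 arrays with (36) and without (30) the block, and 0 in the rank test (0). They were 18 to 31 under the other scalings and filters, and 20 of the 21 were positive under all 8 scalings. Scaling to the 75th percentile of commonly detected miRNAs moved the median of all tested from 0.09 to -0.04 and gave 17 higher and 1 lower, and that of all miRNAs gave 27 higher and 4 lower. Leaving out 1 mouse gave 0 to 24 calls. The 4 interaction calls became 7 with spike-in scaling, 10 and 1 with the percentile of detected and of all miRNAs, 10 with quantile, 45 with vsn on the tested miRNAs only, 30 without a filter, 22 with detection on 3 of the arrays compared, 8 without the replicate block, 7 and 7 with all 24 arrays, and 0 to 155 when a mouse was left out. With a mouse left out, the mean difference in detected miRNAs ranged from -16 to 21, the spike-in ratio from -0.055 to 0.00043 and the local background ratio from -0.0016 to 0.11. The causes were not tested. Signals near background limit 13 of the 21 calls.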
